A study of Mus musculus with 20 samples.

Results

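The effect of losing PLIN2 was examined in livers from mice without food for 24 h. The 10 libraries compared, of 20 in the series, were chosen by their sample group label alone: 5 are labelled Plin2+/+ and fasted, and 5 carry only the label Fasted. The second group was read as Plin2-/- because the design text names no other genotype, and it is called Plin2-null here. All animals were females of the C57BL/6N strain, 15 weeks of age. The other 10 libraries, 5 of each genotype from mice fed chow, entered the model and were used where a value was set beside that of fed mice. The sources used here do not describe how the Plin2 allele was made, and they do not say that each library came from a separate animal, so the p-values rest on the variation among libraries, which may be technical.

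PLIN2 (perilipin 2) is a protein of the surface of cytosolic lipid droplets, where it shields stored triglyceride from lipases. It is the main perilipin of hepatocytes and its level follows the amount of stored fat. In a fast, fatty acids released from adipose tissue reach the liver, where they are esterified and kept in droplets or are oxidised in mitochondria and peroxisomes and turned into ketone bodies. Synthesis of fatty acids and sterols, driven by the SREBP transcription factors, is then low, while glucose output and amino acid catabolism are high.

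The fasted libraries held between 25506471 and 65579038 counts. Hepatocyte markers dominated: the 7 of them in the table summed to between 101472 and 151926 CPM in Plin2+/+ and between 76567 and 109343 CPM in Plin2-null libraries. These CPM were counts scaled to the TMM-adjusted total of the genes tested, with no adjustment for GC content. Libraries differed in how their counts followed the GC content of the transcript. At a GC content of 59.1%, the 95th percentile of genes, the curve of Plin2+/+ replicates 1 and 2 lay at -0.53 and -0.51 log2 units, that of replicate 3 at -0.16 and that of replicate 5 at 0.26. In Plin2-null libraries it reached 0.41 in replicate 4 and 0.26 in replicate 3. Each library's curve was therefore removed before testing, which also removes any genotype difference that follows GC content. Values are given as GC-adjusted CPM unless stated. Plin2-null replicate 3 also had 27.9% of its counts in genes that are not protein-coding, against 7.04% to 16.4% in the other fasted libraries.

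**Figure D1:**
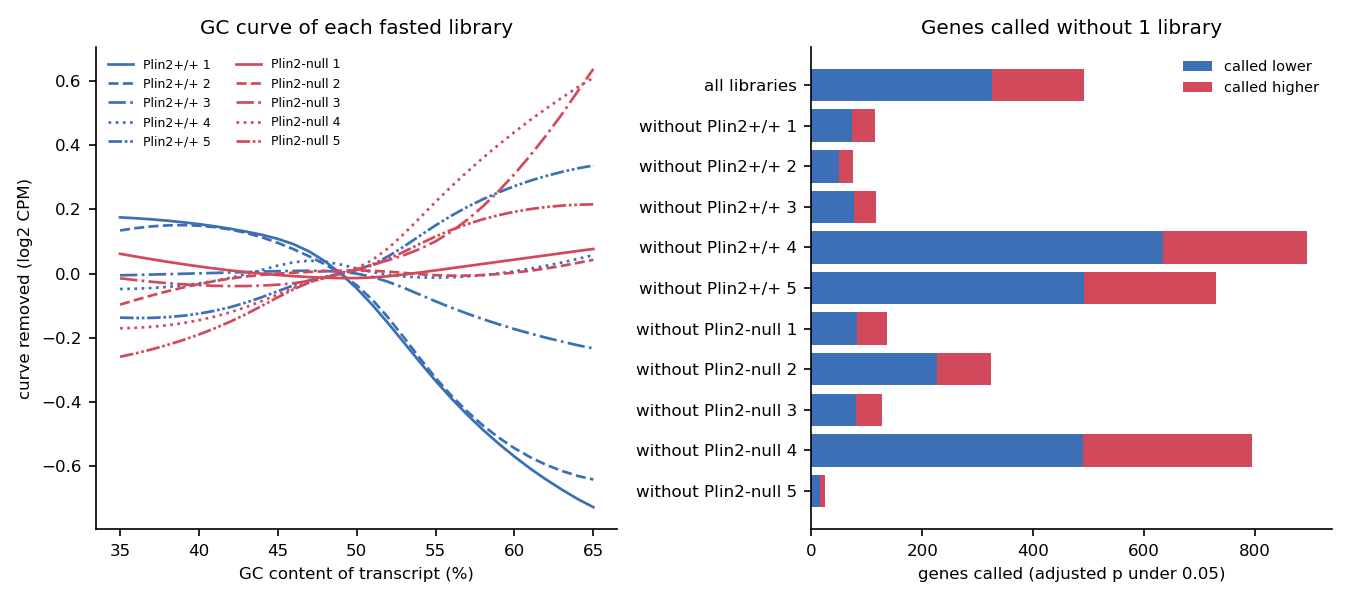
Left, the GC curve removed from each of the 10 fasted libraries (log2 CPM against the GC content of the transcript in percent; blue Plin2+/+, red Plin2-null, line style by replicate). Right, the number of genes called lower (blue) and higher (red) in Plin2-null livers with all libraries and without each fasted library in turn; the total runs from 24 to 894 against 491 with all libraries.

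Plin2 itself was low in every library labelled Fasted. Its level was 1655, 1204, 1728, 1548 and 1590.4 CPM in the Plin2+/+ libraries and 78.5, 85.0, 81.3, 71.0 and 126 CPM in the Plin2-null libraries. The groups stood far apart, with replicate 5 the highest of the Plin2-null libraries. The mean was 1545 ± 202 CPM in Plin2+/+ against 88.4 ± 21.7 CPM in Plin2-null livers (SD, n = 5 each), a ratio of 17.5. The log2 fold change, here and below Plin2-null minus Plin2+/+, was -4.13 ± 0.22 (SE; edgeR quasi-likelihood test, adjusted p = 1.13e-10). An exact two-sided permutation test gave p = 0.00794, the smallest that 5 libraries against 5 allow. Between 2155 and 6318 reads per Plin2-null library were still assigned to the gene, against 36022 to 65596 per Plin2+/+ library. In fed mice the level was 256 ± 57.2 CPM in Plin2+/+ against 19.6 ± 6.41 CPM in Plin2-null livers (SD, n = 5 each), so the remaining transcript, too, stood higher in fasted than in fed libraries.

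Plin2 (ENSMUSG00000028494) is a protein-coding gene on the minus strand of chromosome 4 from 86648386 to 86670060 in GENCODE M21 (GRCm38). The sequence before its start site is shown, from the RefSeq promoter table of GRCm38.p6 (chr4:86670058-86670309, minus strand, written 5′ to 3′). It is that of the reference genome. Whether the Plin2-null allele carries it, and where the reads assigned to the gene in Plin2-null libraries come from, was not tested. The capitals mark an E-box, CACGTG, a palindrome bound by basic helix-loop-helix factors, which runs from 4 bases before the start site to the base at position 2 after it.
Plin2: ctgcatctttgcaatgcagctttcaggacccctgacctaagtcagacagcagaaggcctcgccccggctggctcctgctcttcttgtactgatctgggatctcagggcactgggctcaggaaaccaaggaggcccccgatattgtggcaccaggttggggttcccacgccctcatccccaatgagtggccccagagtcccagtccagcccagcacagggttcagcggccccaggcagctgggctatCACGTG
A match to these letters is a description and not evidence of binding.

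Beyond Plin2, few genes differed by much. Of 16312 genes tested, 491 (3.01%) were called at an adjusted p under 0.05, 166 of them higher (1.02%) and 325 lower (1.99%) in Plin2-null livers. The changes were mostly modest, with a median size of 0.57 log2 units among the called genes; 58 rose and 38 fell by at least 1 log2 unit. Without removal of the GC curves 528 genes (3.24%) were called, split as 246 higher (1.51%) and 282 lower (1.73%), and 335 genes (2.05%) were called both ways, 130 higher (0.797%) and 205 lower (1.26%). The GC content of the called genes moved with that choice: its median was 54.4% for genes called higher and 44.9% for genes called lower without removal, and 50.8% and 49.5% with it, against 49.0% for all genes tested. In 281 of the 491 genes the libraries of the groups did not overlap, as was the case for 675 of all genes tested (4.14%).

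The number of calls rested on single libraries. It was 24 without Plin2-null replicate 5, and 75, 115 and 116 without Plin2+/+ replicates 2, 1 and 3. It was 137, 127 and 323 without Plin2-null replicates 1, 3 and 2. It rose to 894 and 729 without Plin2+/+ replicates 4 and 5, and to 794 without Plin2-null replicate 4. Those last Plin2+/+ libraries often lay nearest to the Plin2-null group, and Plin2-null replicate 4 nearest to the Plin2+/+ group, as the values below show. In every one of these 10 fits 21 genes were called, 8 higher and 13 lower. Those not described below, named after their values were seen, were Zfp810 (1.23), Rxrg, a retinoid X receptor (1.00), and Crip2 (0.69) among the rises and 2500002B13Rik (-1.07), Cln8 (-0.88), Klhl21 (-0.83), Fxr2 (-0.65), Kyat1, a kynurenine aminotransferase (-0.63), Fbxo30 (-0.60), Dpy19l1 (-0.54) and Ndrg3 (-0.51 log2 units) among the falls.

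**Figure D2:**
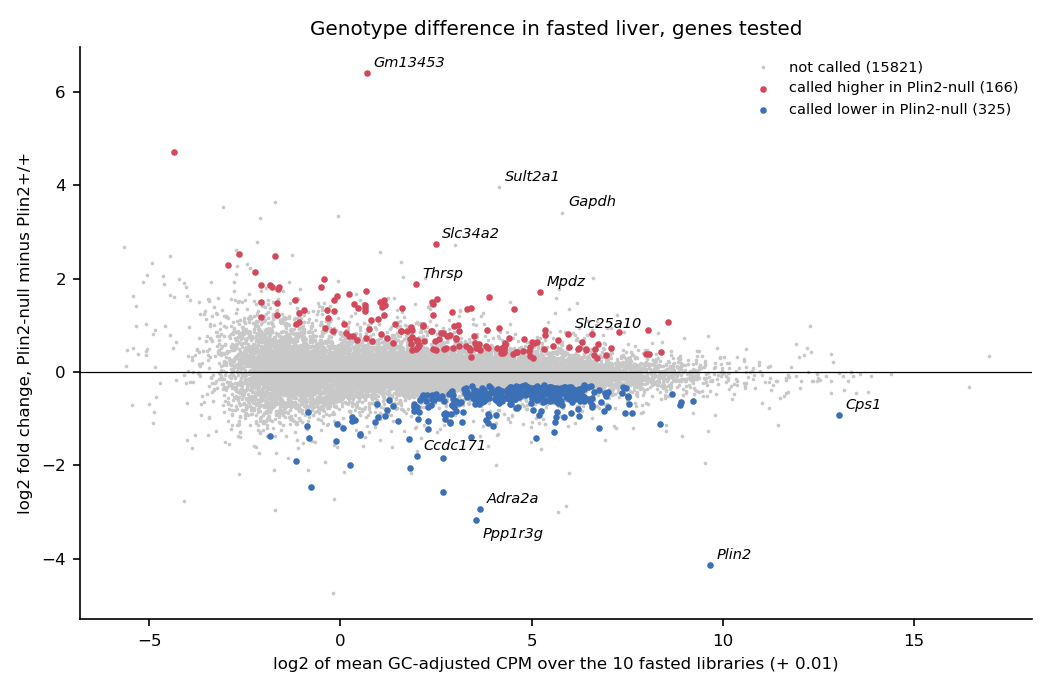
Log2 fold change between Plin2-null and Plin2+/+ fasted livers against the log2 of the mean GC-adjusted CPM, 1 point per gene (red, 166 called higher; blue, 325 called lower; grey, not called). Plin2 stands alone at the bottom right, and most called genes lie within 1 log2 unit of 0.

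Among genes that met the rule for naming (called with and without the GC curves, at a mean of at least 5 CPM and with no overlap between groups), 35 were higher and 109 lower in Plin2-null livers. The 15 largest rises ran from 2.74 ± 0.60 log2 units (SE) for Slc34a2, a sodium-phosphate cotransporter, to 0.65 ± 0.13 for Lrrc8d, a subunit of volume-regulated anion channels. Slc34a2 was at 1.15, 1.04, 0.647, 2.28 and 2.37 CPM in Plin2+/+ libraries and at 14.3, 8.61, 7.16, 3.42 and 15.3 CPM in Plin2-null libraries. Its lowest Plin2-null value, in replicate 4, was not far above the highest Plin2+/+ values, in replicates 4 and 5.

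Slc25a10, Tkt and Srebf1 were among these rises. Slc25a10, which carries dicarboxylates such as malate and succinate across the inner mitochondrial membrane, was at 39.7, 43.9, 39.8, 52.7 and 50.5 CPM in Plin2+/+ libraries and at 65.2, 79.1, 95.6, 70.2 and 86.2 CPM in Plin2-null libraries. All Plin2-null values lay above all Plin2+/+ values (0.81 ± 0.11, SE, adjusted p = 6.17e-04). The means in fed mice were 50.7 ± 6.37 CPM (Plin2+/+) and 48.5 ± 0.586 CPM (Plin2-null) (SD, n = 5 each). Tkt, transketolase of the pentose phosphate pathway, rose by 0.80 ± 0.21 log2 units (SE, adjusted p = 0.0432). Srebf1, which encodes the transcription factor SREBP-1, was at 5.12, 4.24, 5.72, 5.45 and 7.08 CPM in Plin2+/+ libraries and at 16.5, 10.3, 10.0, 7.66 and 11.5 CPM in Plin2-null libraries. Its groups did not overlap (1.01 ± 0.20, SE, adjusted p = 0.0165), although both stood far below the fed means of 130.1 ± 31.6 CPM in Plin2+/+ against 121 ± 23.6 CPM in Plin2-null livers (SD, n = 5 each).

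Actb, beta-actin, was at 183, 163, 165, 199.6 and 208 CPM in Plin2+/+ libraries and at 386, 351, 476, 226 and 264 CPM in Plin2-null libraries (0.89 ± 0.18, SE, adjusted p = 0.0144). H3f3b, a gene of the replacement histone H3.3, went from 112 ± 16.3 to 201 ± 54.4 CPM (SD, n = 5 each; edgeR adjusted p = 0.00912), and Cldn2, a claudin of tight junctions, from 68.9 ± 11.3 to 121 ± 31.5 CPM (SD, n = 5 each; edgeR adjusted p = 0.0130). Cirbp, the cold-inducible RNA-binding protein, was at 11.2, 10.2, 14.1, 12.9 and 17.3 CPM in Plin2+/+ libraries and at 35.8, 22.3, 40.5, 20.9 and 48.3 CPM in Plin2-null libraries. It changed by 1.35 ± 0.30 log2 units (SE, adjusted p = 0.0250), with Plin2-null replicates 2 and 4 the lowest of their group. The remaining rises were those of Mpdz, a scaffold with many PDZ domains (1.71), Raet1d, a ligand of the NKG2D receptor of lymphocytes (1.57), Oasl1, an interferon-induced gene (1.46), Lamb3, a laminin chain (0.94), H2-Ab1 of MHC class II (0.88) and Hdhd3 (0.88 log2 units).

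The largest falls were those of Ppp1r3g, Adra2a and Maff, all of which were higher in fasted than in fed Plin2+/+ livers by their means. Ppp1r3g, which targets protein phosphatase 1 to glycogen, was at 17.0, 22.1, 53.1, 5.34 and 7.50 CPM in Plin2+/+ libraries and at 1.87, 2.55, 1.53, 3.58 and 2.08 CPM in Plin2-null libraries. It fell by 3.16 ± 0.67 log2 units (SE, adjusted p = 0.0246), with a wide spread among the Plin2+/+ libraries, of which replicate 3 was highest. Adra2a, an adrenergic receptor for adrenaline and noradrenaline, was at 18.6, 31.8, 37.2, 11.0 and 13.3 CPM in Plin2+/+ libraries and at 1.48, 1.58, 2.67, 7.12 and 1.497 CPM in Plin2-null libraries. It fell by 2.93 ± 0.45 log2 units (SE, adjusted p = 0.00735). Both genes were near 0 in fed livers of either genotype, with means of at most 0.394 CPM for Ppp1r3g and 0.0140 CPM for Adra2a. Maff, a small MAF transcription factor, fell by 1.85 ± 0.36 log2 units (SE, adjusted p = 0.0144), from 10.1 ± 5.71 to 2.78 ± 0.327 CPM (SD, n = 5 each), and was at 1.28 CPM in fed livers of both genotypes.

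Transporters and a transcription factor fell by less but with tighter values. Zhx3, a zinc finger and homeobox transcription factor, was at 130.0, 132, 135, 101 and 100.04 CPM in Plin2+/+ libraries and at 61.8, 64.4, 71.5, 78.1 and 80.7 CPM in Plin2-null libraries (-0.75 ± 0.11, SE, adjusted p = 0.00275). Its fed means were 80.5 ± 11.6 CPM in Plin2+/+ against 80.221 ± 6.43 CPM in Plin2-null livers (SD, n = 5 each). Cnnm4, a magnesium transporter, changed by -1.08 ± 0.18 log2 units (SE, adjusted p = 0.00735). Slc16a10, which carries aromatic amino acids, changed by -0.87 ± 0.19 and Slc17a8, a vesicular glutamate transporter, by -0.96 ± 0.21 log2 units (SE). The others were Arl13b, a small GTPase of cilia (-1.39), Tbc1d8 (-1.28), Arhgef37 (-1.15), Cln6, a protein of the endoplasmic reticulum (-0.91), Rsrp1 (-0.88), Smim13 (-0.85), Fmo2, a flavin monooxygenase (-0.83), and Grpel2, a mitochondrial co-chaperone (-0.75 log2 units).

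Of the 15 rises, Mpdz, H3f3b and Slc25a10 were called whichever fasted library was left out, and of the 15 falls Adra2a, Cnnm4 and Zhx3. The highest adjusted p of the other 24 with 1 library left out lay between 0.0503 for Cldn2 and 0.114 for Tkt. Srebf1 had an adjusted p of 0.0628 without Plin2+/+ replicate 2 and 0.0530 without Plin2-null replicate 5.

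**Figure D3:**
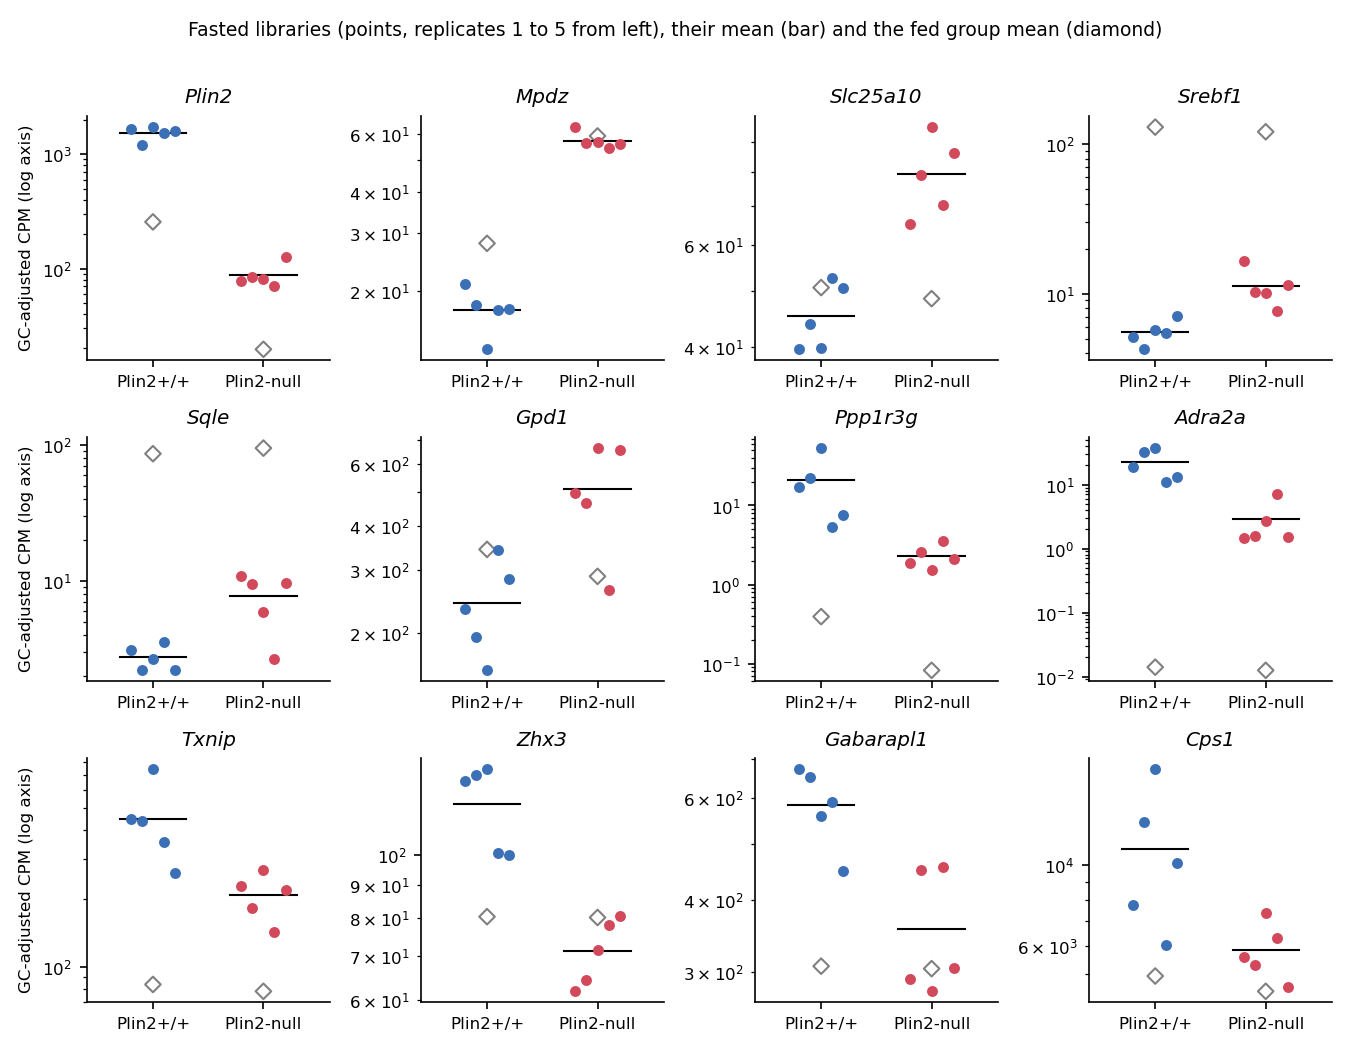
GC-adjusted CPM (log axis) of 12 genes in the fasted libraries (points, replicates 1 to 5 from left; blue Plin2+/+, red Plin2-null), with the mean of the 5 libraries (bar) and the mean of the fed group of the same genotype (grey diamond). Plin2, Mpdz, Slc25a10, Srebf1, Ppp1r3g, Adra2a and Zhx3 show no overlap between the fasted groups, while Sqle, Gpd1, Txnip, Gabarapl1 and Cps1 do.

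Genes of the lipid droplet other than Plin2 were then examined. Of 15 tested genes of droplet coats, fusion and biogenesis 1 was called, beside 3.01% of all genes: Bscl2, which encodes seipin, a protein of droplet formation, rose by 0.41 ± 0.11 log2 units (SE, adjusted p = 0.0466). It ran from 13.8 to 19.4 CPM (median 17.3) in Plin2+/+ against 19.4 to 25.1 CPM (median 22.5) in Plin2-null libraries. The other perilipins gave no call. Plin5, the perilipin of oxidative tissues, averaged 118 ± 28.5 CPM in Plin2+/+ against 123 ± 12.9 CPM in Plin2-null livers, and Plin3 at 31.2 ± 5.84 and 29.9 ± 7.72 CPM (SD, n = 5 each). Cidec, a droplet fusion protein, was at 59.3 ± 27.3 and 76.1 ± 19.9 CPM (SD, n = 5 each). G0s2, an inhibitor of the lipase ATGL, was at 32.9, 19.4, 24.3, 65.2 and 52.0 CPM in Plin2+/+ libraries and at 136, 71.8, 107, 103 and 120.1 CPM in Plin2-null libraries. Its groups did not overlap, yet with the pooled spread it did not pass the test (1.47 ± 0.51, SE, adjusted p = 0.114).

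Lipases and the enzymes of triglyceride synthesis gave 1 call each, beside 3.01% called among all genes tested. Lipa, the acid lipase of lysosomes, rose by 0.42 ± 0.11 log2 units (SE, adjusted p = 0.0368; 1 of 15 lipolysis genes), from 283 ± 44.6 to 379 ± 44.2 CPM (SD, n = 5 each). Pnpla2, which encodes ATGL, was at 168 ± 73.8 and 121 ± 27.2 CPM (SD, n = 5 each) and did not pass. Agpat2, an acyltransferase of phosphatidic acid synthesis, rose by 0.49 ± 0.13 log2 units (SE, adjusted p = 0.0498; 1 of 13 synthesis genes). In Plin2-null libraries it was at 124 to 131 CPM in 4 of them and at 73.6 CPM in replicate 4.

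Sterol and fatty acid synthesis genes held the most rises among the lipid lists. Of 25 sterol genes 2 were called higher and none lower, beside 1.02% higher and 1.99% lower among all genes tested. A positive fold change was found in 22 of the 25, with a median of 0.38 log2 units against -0.02 for all genes tested. Sqle, squalene epoxidase, was at 3.11, 2.20, 2.64, 3.56 and 2.20 CPM in Plin2+/+ libraries and at 10.9, 9.55, 5.89, 2.67 and 9.56 CPM in Plin2-null libraries. Plin2-null replicate 4 lay within the Plin2+/+ range and the others above it (1.504 ± 0.34, SE, adjusted p = 0.0273). Fed livers held 85.9 ± 23.8 CPM in Plin2+/+ against 94.5 ± 29.5 CPM in Plin2-null mice (SD, n = 5 each). Tm7sf2, a sterol reductase, rose by 0.62 ± 0.13 log2 units (SE, adjusted p = 0.0165). Insig1, which holds SREBPs in the endoplasmic reticulum, had a log2 fold change of -0.23 (adjusted p = 0.637). DESeq2 called 7 of the 25 higher, and the count ran from 0 to 7 when single libraries were left out.

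Of 20 fatty acid synthesis and desaturation genes 3 were called higher and none lower, with a median of 0.20 log2 units. The background over all genes tested was 1.02% higher, 1.99% lower and a median of -0.02 log2 units. Beside Srebf1 these were Thrsp, a regulator of lipogenesis, and Scd2, a desaturase. Thrsp was at 1.33, 1.55, 1.65, 1.63 and 2.24 CPM in Plin2+/+ libraries and at 4.01, 3.84, 11.5, 2.16 and 9.60 CPM in Plin2-null libraries (1.87 ± 0.45, SE, adjusted p = 0.0359). Its Plin2-null replicate 4 lay within the Plin2+/+ range. Scd2 rose by 0.67 ± 0.17 log2 units (SE, adjusted p = 0.0383). Fasn, fatty acid synthase, averaged 62.0 ± 15.9 CPM in Plin2+/+ against 103 ± 26.7 CPM in Plin2-null livers (SD, n = 5 each; edgeR adjusted p = 0.0555). With 1 library left out between 0 and 4 genes of the list were called higher.

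**Figure D4:**
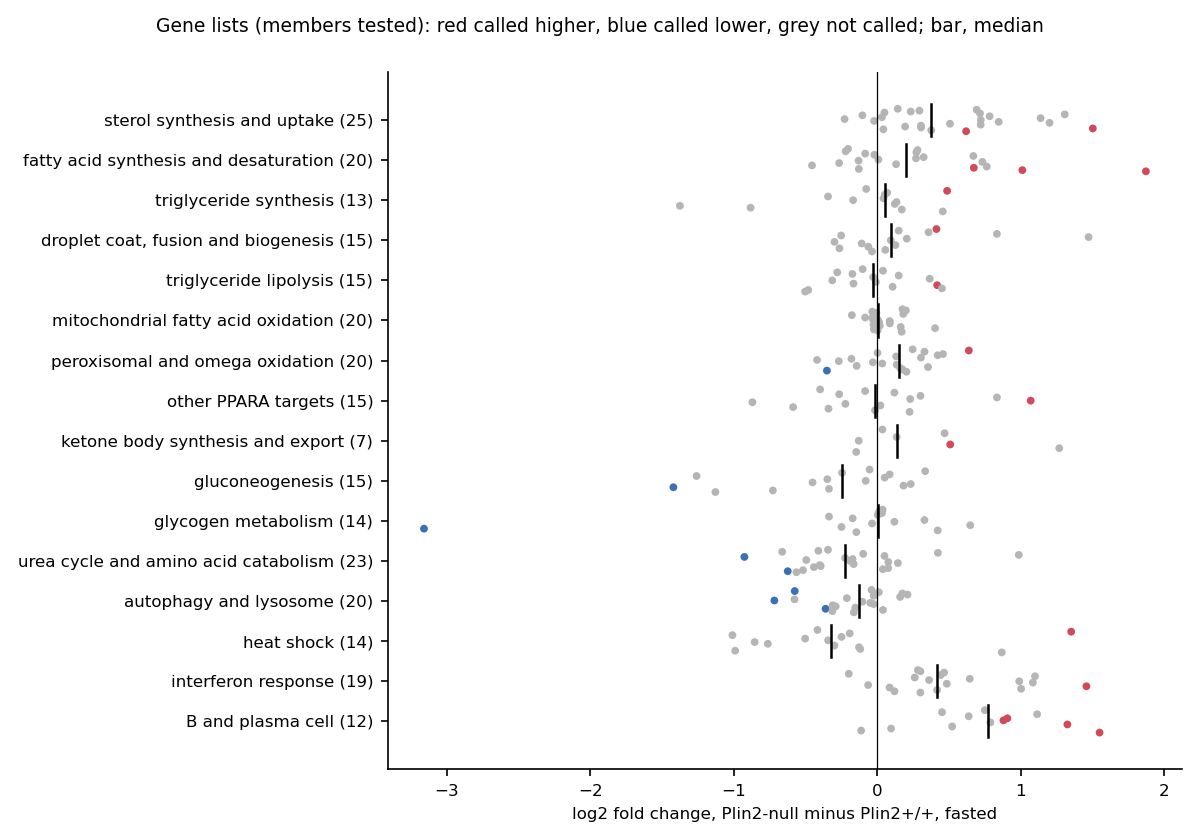
Log2 fold change (Plin2-null minus Plin2+/+, fasted) of the tested members of 15 gene lists and of the B and plasma cell markers, 1 point per gene (red, called higher; blue, called lower; grey, not called), with the number tested in brackets and the median as a bar. Sterol synthesis lies mostly right of 0 with a median of 0.38, and mitochondrial fatty acid oxidation lies around 0 with a median of 0.01.

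Transcripts of mitochondrial fatty acid oxidation did not differ to a degree the edgeR test could call. Of 20 genes of mitochondrial fatty acid oxidation edgeR called none, with 1 at an unadjusted p under 0.05 (higher), and DESeq2 called 1. The median was 0.01 log2 units. Among all 16312 genes tested edgeR called 3.01%, with 3439 at an unadjusted p under 0.05, and DESeq2 called 1228. A list of this size would thus hold few calls at the share of all genes. Cpt1a, the gatekeeper of long-chain fatty acid entry into mitochondria, was at 1082, 1101, 1218, 869 and 992 CPM in Plin2+/+ libraries and at 1057, 1062, 1017, 1027 and 1003 CPM in Plin2-null libraries (-0.03 ± 0.11, SE). Among 7 ketone body genes Slc16a1, a monocarboxylate transporter, rose by 0.51 ± 0.14 log2 units (SE, adjusted p = 0.0498).

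Of 20 peroxisomal and omega oxidation genes 1 was called higher and 1 lower, beside 1.02% higher and 1.99% lower among all genes tested. The rise was that of Abcd2, a carrier of very long-chain fatty acids (0.64 ± 0.16, SE, adjusted p = 0.0383). The gene called lower, not named here, was not called without removal of the GC curves. Cyp4a14, an omega-hydroxylase, was at 13921 to 18032 CPM (median 16765) in Plin2+/+ against 10539.6 to 12839 CPM (median 12549) in Plin2-null libraries. Its groups did not overlap, but it did not pass the test (adjusted p = 0.624). Gpd1, glycerol-3-phosphate dehydrogenase, was the 1 called of 15 further PPARA targets: it was at 233, 195, 157, 343 and 284 CPM in Plin2+/+ libraries and at 497, 466, 664, 264 and 654 CPM in Plin2-null libraries. Plin2-null replicate 4 again lay inside the Plin2+/+ range (1.07 ± 0.24, SE, adjusted p = 0.0246).

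In each of the lists of gluconeogenesis, glycolysis and glycogen metabolism 1 gene was called, in each case lower, with medians of -0.24, 0.05 and 0.01 log2 units. Over all genes tested 1.99% were called lower, with a median of -0.02 log2 units. Of 15 gluconeogenesis genes 1 was called lower, Ppargc1a, a coactivator of the fasting response, at 43.1, 57.6, 97.03, 27.1 and 28.8 CPM in Plin2+/+ libraries and at 14.9, 31.1, 22.2, 13.6 and 13.2 CPM in Plin2-null libraries (-1.42 ± 0.37, SE, adjusted p = 0.0485). Plin2-null replicate 2 lay above Plin2+/+ replicates 4 and 5. Pck1, whose product makes phosphoenolpyruvate, was at 3720.1 ± 687 and 2724 ± 616 CPM (SD, n = 5 each) and did not pass (edgeR adjusted p = 0.581). Of 19 genes of glycolysis and glucose sensing 1 was called, Txnip, which restrains glucose uptake. It was at 451, 438, 745, 354 and 259 CPM in Plin2+/+ libraries and at 227, 182, 267, 143 and 218 CPM in Plin2-null libraries (-1.12 ± 0.22, SE, adjusted p = 0.0144), against 83.5 ± 14.1 CPM and 77.9 ± 14.2 CPM in fed mice (SD, n = 5 each). Plin2+/+ replicate 5 alone reached into the Plin2-null range. Of 14 glycogen genes Ppp1r3g, described above, was the 1 called.

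Amino acid catabolism and autophagy lists leaned lower. Of 23 genes of the urea cycle and amino acid catabolism 2 fell and none rose, with a median of -0.22 log2 units. Among all genes tested 1.99% were called lower and the median was -0.02 log2 units. Cps1, which commits ammonia to the urea cycle, was at 7756, 13097, 18346, 6006 and 10149 CPM in Plin2+/+ libraries and at 5569, 5306, 7361, 6302 and 4627 CPM in Plin2-null libraries (-0.92 ± 0.24, SE, adjusted p = 0.0392). Plin2+/+ replicate 4 lay within the Plin2-null range and replicate 3 stood highest. Slc25a15, the mitochondrial ornithine carrier, fell by 0.62 ± 0.17 log2 units (SE, adjusted p = 0.0489). Of 20 autophagy and lysosome genes 3 fell and none rose (median -0.13): Gabarapl1, of the ATG8 family, Atg14, of the kinase complex that starts autophagosomes, and Tfe3, a transcription factor of lysosomal genes. Gabarapl1 was at 674, 653, 558, 589.8 and 448 CPM in Plin2+/+ libraries and at 292, 450.05, 278, 456 and 305 CPM in Plin2-null libraries (-0.72 ± 0.16, SE, adjusted p = 0.0251). Its fed means, 307 ± 58.1 CPM and 304 ± 46.4 CPM (SD, n = 5 each), were near the lower Plin2-null values. With single libraries left out the lower counts ran from 0 to 4 in both lists.

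Lists of hormone response and stress held few calls. At an unadjusted p under 0.05 stood 3439 of all 16312 genes tested, which had a median of -0.02 log2 units. Of all genes tested edgeR called 3.01%, with 1.02% higher and 1.99% lower. Of 21 insulin, FOXO and glucocorticoid genes edgeR called none, with 7 at an unadjusted p under 0.05 (all lower), and DESeq2 called 3 lower; 17 had a negative fold change (median -0.32). Igfbp1, an insulin-repressed binding protein, was at 1186, 1344, 2358, 358 and 631 CPM in Plin2+/+ libraries and at 380.4, 326, 237, 134 and 443 CPM in Plin2-null libraries, and did not pass (-1.95 ± 0.79, SE, adjusted p = 0.170). Plin2+/+ replicate 4 lay inside the Plin2-null range. Of 14 heat shock and cold-inducible genes Cirbp was the 1 called, while 12 had a negative fold change (median -0.32) and 7 had an unadjusted p under 0.05, 2 of them higher and 5 lower. Among 18 genes of the unfolded protein response edgeR and DESeq2 called none, and none had an unadjusted p under 0.05. Of 19 circadian, 14 integrated stress response and 20 acute phase genes edgeR called none either, with 5, 3 and 2 at an unadjusted p under 0.05 and 0, 1 and 0 by DESeq2. Of 25 genes of xenobiotic metabolism 1 was called, Cyp1a1, a target of the aryl hydrocarbon receptor (1.43 ± 0.27, SE, adjusted p = 0.0130), at 1.22 ± 0.362 and 3.23 ± 0.820 CPM (SD, n = 5 each).

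Immune genes and markers of other liver cells were read together. Of 19 interferon response genes Oasl1 was the 1 called, at 3.40, 2.57, 1.66, 3.41 and 3.11 CPM in Plin2+/+ libraries and at 9.81, 10.4, 6.03, 4.86 and 7.80 CPM in Plin2-null libraries (1.46 ± 0.29, SE, adjusted p = 0.0144). A positive fold change was seen in 17 of the 19 (median 0.42, against -0.02 for all genes tested). Of 12 B and plasma cell markers 4 were called higher, beside 1.02% of all genes tested. They were Ms4a1, which encodes CD20, Ighd, the IgD heavy chain, and the MHC class II genes H2-Aa and H2-Ab1. Macrophages and dendritic cells express the MHC class II genes as well. With 1 library left out the count ran from 0 to 5. Sums of markers, here and below, were of CPM without removal of the GC curves, while values of single genes are GC-adjusted. The 12 markers summed to 38.4 to 59.8 CPM in Plin2+/+ against 62.9 to 128 CPM in Plin2-null libraries. Most of that sum was Cd74 and MHC class II; Cd74 was at 53.1 CPM in Plin2-null replicate 2 and at 23.7 to 30.9 CPM in the other Plin2-null libraries. None of the 12 was at 0 throughout, though Ms4a1 stayed under 1 CPM in every fasted library, and the plasma cell gene Jchain had a log2 fold change of -0.11. In a bulk sample more cells of a type and more RNA per cell cannot be told apart.

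Of 8 neutrophil and monocyte markers tested S100a8 and S100a9, calcium-binding proteins of neutrophils, were called higher, beside 1.02% of all genes tested. S100a9 was at 1.196, 1.16, 0.645, 1.35 and 0.937 CPM in Plin2+/+ libraries and at 3.82, 3.03, 2.83, 2.23 and 3.03 CPM in Plin2-null libraries (1.496 ± 0.22, SE, adjusted p = 0.00201), and was called with each library left out. Retnlg, a further neutrophil gene, had a log2 fold change of 1.06 with no overlap between groups but did not pass (adjusted p = 0.163). The remaining tested markers, Ly6c2, Ccr2, Csf3r, Lyz2 and Itgam, had log2 fold changes of 0.55, 0.16, 0.10, -0.01 and -0.05. None of them passed. The summed neutrophil and monocyte markers, 10 in the table, ran from 52.1 to 96.3 CPM in Plin2+/+ against 52.2 to 91.9 CPM in Plin2-null libraries. Most of that sum was Lyz2, which macrophages express as well, at 58.0 ± 16.2 CPM and 57.5 ± 14.1 CPM (SD, n = 5 each). Kupffer cell and macrophage markers (13) summed to 314 to 539 CPM and 435 to 542 CPM, with no call by edgeR or DESeq2 and 4 at an unadjusted p under 0.05. Sums for sinusoidal endothelial and stellate cells overlapped between groups, while Colec11 of the stellate list rose by 0.42 ± 0.11 log2 units (SE, adjusted p = 0.0393). The summed cholangiocyte markers (8) ran from 20.3 to 33.2 CPM and from 27.0 to 37.8 CPM, and the mesothelial markers (5) from 28.05 to 62.1 CPM and from 55.1 to 89.0 CPM. Most of the mesothelial sum was Krt8, a keratin of epithelia in general, at 42.3 ± 8.71 CPM and 60.0 ± 14.8 CPM (SD, n = 5 each; edgeR adjusted p = 0.140), while Msln, Upk3b, Upk1b and Lrrn4 had negative fold changes and did not pass. The adipocyte markers Lep, Cfd and Retn and the acinar markers Cela3b, Cpa1, Cpb1 and Amy2a5 were at 0 in all fasted libraries. The part of any cell type in the other results was not tested.

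Genes near Plin2 were counted apart, since a targeted allele can carry linked sequence. Within 20 Mb of Plin2 on chromosome 4, 7 of 100 other genes tested were called (7%), against 27 of 880 (3.07%) on the rest of chromosome 4 and 456 of 15331 (2.97%) on other chromosomes. Mpdz, from 81278500 to 81442815 and 5.21 Mb from Plin2, was at 20.9, 18.1, 13.3, 17.5 and 17.6 CPM in Plin2+/+ libraries and at 63.1, 56.3, 56.8, 54.6 and 55.9 CPM in Plin2-null libraries (1.71 ± 0.11, SE, adjusted p = 1.14e-09). Every Plin2-null value lay far above every Plin2+/+ value, with little spread in the Plin2-null group. Ccdc171, from 83525545 to 83864670 and 2.78 Mb from Plin2, was at 6.32, 8.17, 7.45, 3.71 and 5.38 CPM in Plin2+/+ libraries and at 2.01, 1.31, 1.73, 2.10 and 1.76 CPM in Plin2-null libraries (-1.80 ± 0.21, SE, adjusted p = 5.67e-05). Its fed means were 3.64 ± 0.844 and 2.09 ± 0.422 CPM (SD, n = 5 each), which did not pass (edgeR adjusted p = 0.574).

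The other 5 called genes of this region were lower in Plin2-null livers. Dennd4c and the ribosomal protein gene Rps6, 0.0785 and 0.185 Mb from Plin2, changed by -0.43 ± 0.11 and -0.54 ± 0.13 log2 units (SE, adjusted p = 0.0357 and 0.0367). Rps6 was not called without removal of the GC curves (-0.16, adjusted p = 0.345), and the libraries of both genes overlapped. Haus6 and Rraga, nearer to Plin2 on its other side, had log2 fold changes of 0.24 and 0.22 and were not called. Ptprd, a receptor tyrosine phosphatase, E130102H24Rik and Mier1, a transcriptional corepressor, changed by -0.62, -0.91 and -0.38 log2 units at 8.44, 14.7 and 16.4 Mb, with no overlap between groups. Linked sequence and loss of the gene product cannot be told apart in these groups.

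**Figure D5:**
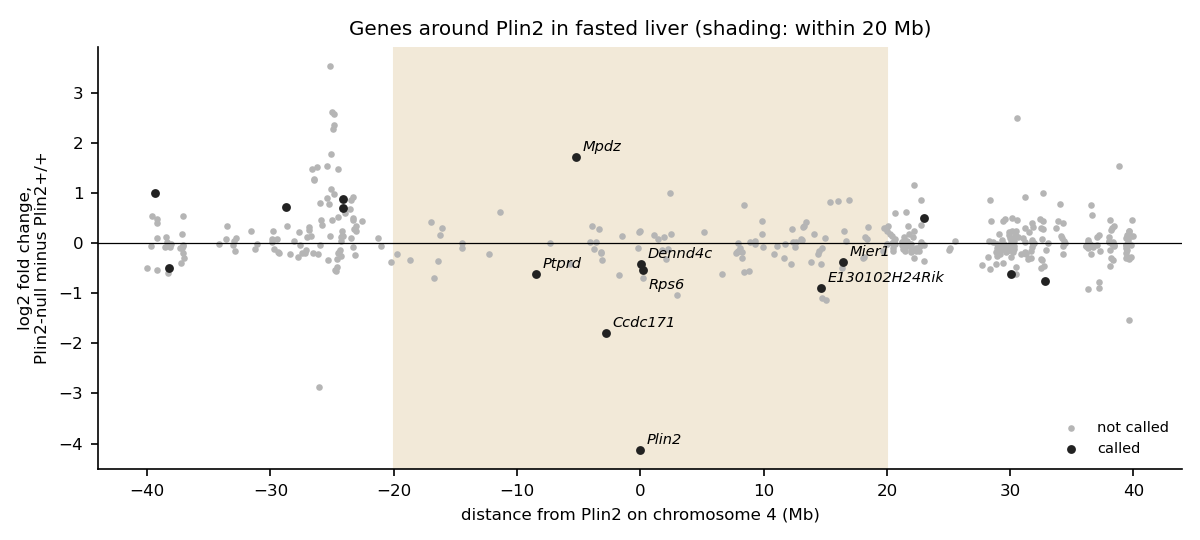
Log2 fold change in fasted liver (Plin2-null minus Plin2+/+) of the genes tested within 40 Mb of Plin2 on chromosome 4, by distance from Plin2 in Mb (black, called; grey, not called; shading, 20 Mb on either side). The 7 called genes in the shaded span besides Plin2 are named, with Mpdz the only rise and Ccdc171 the deepest fall.

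A pseudogene and a housekeeping gene behaved unlike the rest, and both were chosen after their values were seen. Gm13453, a processed pseudogene on chromosome 2 from 40127504 to 40127860, held 1, 2, 1, 0 and 2 reads in Plin2+/+ libraries and 93, 82, 132, 236 and 124 reads in Plin2-null libraries (edgeR adjusted p = 6.36e-08). It was also called in fed mice (edgeR adjusted p = 2.10e-07), and reads of a pseudogene can come from a gene of like sequence. Gapdh, of glycolysis, was at 9.98, 8.56, 11.6, 7.75 and 9.53 CPM in Plin2+/+ libraries but at 9.52, 123, 10.2, 163 and 198 CPM in Plin2-null libraries. Thus 3 of the 5 Plin2-null libraries stood more than 10 times above all others of the 10, and the gene was not called (adjusted p = 0.0597). In Plin2+/+ fed libraries its mean was 37.6 ± 47.7 CPM (SD, n = 5), so a wide spread was also seen there.

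Fed mice were used to ask whether these differences depend on the fast. In fed livers 4 genes (0.0245%) were called by edgeR: Plin2, Mpdz, Gm13453 and Ttc39b. Both Mpdz and Ttc39b lie within 20 Mb of Plin2 on chromosome 4. Ttc39b was not called in fasted livers. Before adjustment, 868 genes in fed and 3439 in fasted livers had p under 0.05. The difference between the fasted and the fed contrast was tested by the interaction, which edgeR called for 0 genes (smallest adjusted p = 0.0789), with 2002 at an unadjusted p under 0.05; DESeq2 called 49, and edgeR called 29 without Plin2-null replicate 4 and 1 without Plin2-null replicate 2. Slc25a10 was at that smallest value, with an interaction of 0.87 log2 units. For Plin2 it was -0.42 ± 0.27 log2 units (SE, adjusted p = 0.537) and for Mpdz 0.63 (adjusted p = 0.247). A greater genotype difference after fasting was therefore not shown for any single gene by the edgeR test.

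Promoters of the called genes were searched for motifs on both strands of the RefSeq windows, from 250 bases before to 50 bases after each start site. Windows were found for 11118 of the genes tested, among them 115 called higher and 250 called lower. The E-box CACGTG was present for 12.2% of genes called higher and 13.6% of those called lower, against 11.3% of all tested genes with a window. The sterol regulatory element TCACNCCAC was present for 1.74% and 1.2%, against 1.48%. The D-box TTATGTAA, bound by PAR bZIP factors of the clock, was present for 0.87% and 1.2%, against 0.792%, and the PPAR response element (a direct repeat with a spacer of a single base) for no called gene, against 0.0540%. For the E-box, found for 14 genes called higher and 34 called lower, the shares were close to that of all genes. The other motifs were found for at most 3 called genes in either direction, too few to compare shares. The PPAR response element was found for only 6 of the 11118 genes. Of the called genes described above, Plin2, Adra2a, Maff, Atg14, Slc25a15 and Slc16a1 had an E-box in a window.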

How the data were processed

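Liver RNA was measured by strand-specific mRNA sequencing, per the labels' protocols. The submitters' processing notes list HISAT2 1.2.1, featureCounts 1.4.6-p1 and the build GRCh38, although the gene IDs are those of mouse; for the annotation release and the counting strand, the sources used here give nothing, and overlapping or antisense genes are uncertain. The authors deposited raw read counts per gene, used for all main tests, and TPM values, used as an alternative on log2(TPM + 1) and log2(TPM + 0.1). Of 55487 gene IDs, 55141 matched a symbol; transcript GC content and positions come from GENCODE M21 (GRCm38).

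All 20 libraries were fitted with edgeR 4.0.16 (R 4.3.3; TMM scaling, low-count filter, quasi-likelihood test, Benjamini-Hochberg adjustment, threshold 0.05), with 1 coefficient per group. The offset held a GC curve per library, a natural spline with 5 degrees of freedom. Standard errors were taken as the size of the fold change (log2) divided by the root of the F statistic. The fit was tested on simulated data. No fasted library duplicated another of its group by a chi-square comparison of 20 pairs (lowest ratio to degrees of freedom 45.3). Pairs across groups and fed libraries were not compared. Alternatives were TMM alone, GC curves within groups, fasted libraries alone, library-size scaling, no filter, DESeq2 1.42.0, limma 3.58.1 (voom and TPM) and each fasted library left out. Plin2 was also tested by an exact permutation test.

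Genes named were the 15 largest rises and falls among genes called with and without GC curves, at a mean of at least 5 CPM with no overlap between groups, and called members of the lists; others are said to be chosen after their values were seen or stand as list members that were not called. The comparison, members and lists were chosen with earlier results of these data known. Results for some genes are not reported here.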

Additional observations from a re-analysis of the deposited data

Results flagged for a closer look

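In 13 of 234 groups of 5 fasted libraries examined, a single library stood apart from the others by Dixon's criterion; chance flags about 1 in 20 groups. The values of 12 of them follow. In Plin2-null livers, replicate 5 had 126 CPM of Plin2 (others 71.0 to 85.0). Replicate 1 stood high for Mpdz at 63.1 CPM (54.6 to 56.8), Slc16a6 at 36.5 CPM (10.9 to 15.9), Hilpda at 18.3 CPM (3.58 to 5.71) and Insig1 at 47.3 CPM (17.1 to 25.8). Replicate 2 stood high for Cd74 at 53.1 CPM (23.7 to 30.9). Replicate 4 stood high for Adra2a at 7.12 CPM (1.48 to 2.67) and Plin3 at 43.4 CPM (24.2 to 28.9). It stood low for Agpat2 at 73.6 CPM (124 to 131) and Abcd2 at 66.4 CPM (98.5 to 111). In Plin2+/+ livers, replicate 3 had 2.84 CPM of Des (others 1.86 to 2.11) and replicate 5 had 90.1 CPM of Fasn (52.6 to 57.9).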

How the results depend on the processing

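With all libraries, 491 genes were called, 166 higher and 325 lower. The counts (either, higher, lower) were 2177, 1303 and 874 with GC curves within groups, 128, 44 and 84 with the fasted libraries alone, 63, 33 and 30 with library-size scaling, 1228, 372 and 856 by DESeq2 with GC curves and 1433, 630 and 803 without. Voom called 109 higher. On log2(TPM + 1) they were 17, 8 and 9, and on log2(TPM + 0.1) 14, 8 and 6. With 1 fasted library left out they ran from 24 to 894, from 9 to 305 and from 15 to 634, and the Plin2 log2 fold change from -4.29 to -4.06. The interaction, 0 in edgeR with all libraries, gave 109 with GC curves within groups, 1 with no filter, 49 by DESeq2, 63 by DESeq2 without GC curves, 1 on either TPM scale and 0 to 29 with 1 library left out. The cause of these differences was not tested. Over 117 named genes and 2806 alternatives no direction reversed, 530 lost and 88 gained a call. Without Plin2-null replicate 5, 56 of 67 called named genes lost their call. No paired analysis was possible because the labels give the groups no shared replicate numbers. Depth was 25506471 counts or more, and 5 libraries a group limit what can be called.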
